A study of Mus musculus with 20 samples.

Results

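The NODAL pathway genes Nodal, Gdf3, Tdgf1, Lefty1 and Lefty2, were followed through 3 assays of mouse embryonic stem cells and of cultures differentiated from them. The genes were picked by symbol out of 22332 genes listed in at least 1 of the chromatin RNA libraries, and all 5 were found in every one of those libraries. They were picked with chromatin RNA results of these samples known, so the RNA values below are a description and carry no test.

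The groups were ESC WT and ESC KO, which are C57BL/6 embryonic stem cells without and with a knockout of Mettl3, and CM WT and CM KO, the cardiomyocyte cultures derived from such cells through embryoid bodies in medium with serum and ascorbic acid. METTL3 is the catalytic subunit of the enzyme that writes N6-methyladenosine (m6A) on RNA. ATAC-seq, which marks open chromatin by transposase insertion, had 3 libraries in each of the 4 groups. ChrRNA-seq, which reads RNA held on chromatin, and Chrm6A-seq, which enriches m6A-bearing fragments of that RNA with antibodies, had 1 sample per group. The deleted part of Mettl3, the number of knockout clones, the day of harvest and whether libraries came from separate cultures are not recorded in the labels, so p-values measure the spread between libraries, which may be technical.

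NODAL is a secreted ligand of the TGF-beta superfamily that signals through activin receptors and SMAD2/3 with FOXH1. It needs an EGF-CFC co-receptor, CRIPTO, the product of Tdgf1, and it drives the antagonists LEFTY1 and LEFTY2 as feedback targets. GDF3 is a related ligand that also uses CRIPTO. The pathway patterns the early embryo and its genes are known for activity in pluripotent cells.

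The start of Tdgf1 is shown first because its accessibility call separated the cell types in every library. The 250 bases before the annotated start of Tdgf1 (minus strand, chr9:110946159-110946408) and of Nodal (plus strand, chr10:61417722-61417971) are printed 5′ to 3′ on the transcribed strand, from RefSeq on GRCm38.p6, the assembly behind mm10. Capitals mark bases inside an ATAC-seq interval in all 6 ESC libraries.
Tdgf1: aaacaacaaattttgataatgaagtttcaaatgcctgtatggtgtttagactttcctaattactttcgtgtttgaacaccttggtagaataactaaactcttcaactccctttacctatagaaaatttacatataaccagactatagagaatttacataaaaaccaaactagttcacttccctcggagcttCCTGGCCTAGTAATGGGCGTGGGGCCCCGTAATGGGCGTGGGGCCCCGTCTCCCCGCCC
Nodal: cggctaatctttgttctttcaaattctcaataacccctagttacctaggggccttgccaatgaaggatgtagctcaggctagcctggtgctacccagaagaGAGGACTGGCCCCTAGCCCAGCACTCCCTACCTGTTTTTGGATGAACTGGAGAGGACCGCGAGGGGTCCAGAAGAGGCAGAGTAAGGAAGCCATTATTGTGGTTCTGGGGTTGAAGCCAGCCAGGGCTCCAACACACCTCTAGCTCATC
In Tdgf1 the capitals cover 59 of the 250 bases, those next to the start, and in Nodal they cover 149. The Tdgf1 stretch holds the 21-base run GTAATGGGCGTGGGGCCCCGT in 2 overlapping copies, which begin 50 and 31 bases before the start. A repeated run of that length in these 250 bases was found in 2.21% of 32851 promoters. The repeat was looked for after the sequence had been seen.

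Of the motifs searched on both strands in the 250 bases before and 50 after the start, 1 matched. CAGAC, the core of the SMAD box, lay 113 to 109 bases before the Tdgf1 start, outside the capitals. It occurs in 49.6% of promoters of this length. The intervals of the ESC WT libraries, ending 6666 to 6691 bases from the lower-coordinate end of the gene, covered this match. Those of the ESC KO libraries, ending at 6609 to 6641 bases, did not. TGTGGATT and TGTGTATT for FOXH1 (0.855% and 0.980% of promoters), GTCTAGAC for SMAD (0.213%), ATGCAAAT for the octamer (1.74%) and ATTGTT for SOX (10.7%) had no match in either window.

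Chromatin RNA is given in RPKM, reads scaled to gene length and library size, with an exact 95% interval for counting error on estimated reads. The libraries held an estimated 27880000 to 29800000 reads, and the 5 genes had between 66 and 5508 estimated reads each. Among the markers, the 6 pluripotency genes with a value summed to 35.6 (WT) and 40.4 RPKM (KO) in ESCs and to 4.81 (WT) and 9.35 RPKM (KO) in CM. The 9 cardiomyocyte markers summed to 7.73 RPKM in CM WT and to 0.570 in CM KO, beside 0.716 (WT) and 0.595 RPKM (KO) in ESCs, and all 9 were lower in CM KO than in CM WT. Most of the ESC sums came from Ttn, at 0.641 (WT) and 0.491 RPKM (KO) there and at 0.140 in CM KO. Without Ttn, left out after its values were seen, the other 8 summed to 0.0748 (WT) and 0.104 RPKM (KO) in ESCs, 5.54 in CM WT and 0.430 in CM KO. The library labelled CM KO thus held low cardiac marker RNA, with 7 of the 9 above their ESC KO level. Nkx2-5, a cardiac transcription factor, stood at 0.0820 RPKM in CM WT and 0.0346 in CM KO and had no row in the ESC tables. For RNA, comparisons of CM WT with ESC WT are given apart from those with CM KO. Both CM libraries also held blood, endoderm and fibroblast markers, and in such mixed material fewer cells of a type cannot be told apart from less RNA per cell. Mettl3 itself, counted over the whole gene, was at 1.73 (WT) and 1.28 RPKM (KO) in ESCs and at 1.18 (WT) and 1.07 RPKM (KO) in CM.

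Of the ligands, Nodal (chromosome 10, 61417972 to 61425338) was at 2.71 RPKM (2.49 to 2.95) in the WT and 2.01 RPKM (1.83 to 2.22) in the KO library of ESCs. In the CM libraries Nodal was 0.877 RPKM (0.757 to 1.01) in WT and 0.814 RPKM (0.699 to 0.943) in KO. Its level was higher in both ESC libraries than in both CM libraries, and only the CM intervals overlapped each other. The ratio of CM WT to ESC WT was 0.323 (0.273 to 0.383) and that of CM KO to ESC KO was 0.404 (0.338 to 0.484). Within ESCs the KO library held 0.743 times the WT level (0.652 to 0.845).

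Gdf3 (chromosome 6, 122605403 to 122610087) was at 5.59 RPKM (5.19 to 6.01) in the WT and 4.86 RPKM (4.49 to 5.25) in the KO library of ESCs. In the CM libraries Gdf3 was 0.479 RPKM (0.370 to 0.609) in WT and 1.09 RPKM (0.928 to 1.28) in KO. This ligand gene had the lowest level of the 5 in any library, in CM WT, where 66 estimated reads lay behind the value. The ratio of CM KO to CM WT was 2.28 (1.70 to 3.10), while that of ESC KO to ESC WT was 0.869 (0.780 to 0.968). The ratio of CM to ESC was 0.0856 (0.0656 to 0.110) in WT and 0.225 (0.188 to 0.269) in KO.

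Tdgf1 (chromosome 9, 110939608 to 110946158), the co-receptor gene, had the highest level per length of the 5 in all 4 libraries. It was at 30.2 RPKM (29.4 to 31.0) in the WT and 22.1 RPKM (21.4 to 22.8) in the KO library of ESCs. In the CM libraries the level was 3.41 RPKM (3.16 to 3.68) in WT and 4.88 RPKM (4.57 to 5.20) in KO. No 2 of these intervals overlapped. The ratio of KO to WT was 0.733 (0.704 to 0.764) in ESCs and 1.43 (1.29 to 1.58) in CM. The ratio of CM KO to ESC KO was 0.221 (0.205 to 0.237). A processed copy, Tdgf1-ps1, was listed at 3.05 RPKM in ESC WT and 1.59 in ESC KO and in neither CM library, and the labels do not say how reads were shared between the gene and its copies.

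The antagonists had another order of levels. Lefty1 (chromosome 1, 180935022 to 180938401) was at 0.836 RPKM (0.662 to 1.04) in the WT and 3.45 RPKM (3.09 to 3.85) in the KO library of ESCs. In the CM libraries Lefty1 was 0.865 RPKM (0.692 to 1.07) in WT and 0.922 RPKM (0.744 to 1.13) in KO. The ESC KO library stood alone and the intervals of the other 3 overlapped. Lefty2 (chromosome 1, 180893108 to 180899107) was at 0.882 RPKM (0.746 to 1.04) in the WT and 4.98 RPKM (4.65 to 5.33) in the KO library of ESCs. In the CM libraries Lefty2 was 0.924 RPKM (0.788 to 1.08) in WT and 1.58 RPKM (1.40 to 1.78) in KO. It too was highest in ESC KO, and CM KO came next, at 1.71 times CM WT (1.41 to 2.09).

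The ratio of CM KO to ESC KO was 0.267 (0.210 to 0.338) for Lefty1 and 0.318 (0.277 to 0.364) for Lefty2. The ratio of CM WT to ESC WT was 1.04 for Lefty1 (0.753 to 1.42) and 1.05 for Lefty2 (0.832 to 1.32). The lncRNA gene Gm39715 overlaps Lefty1, and Lefty1 and Lefty2 are close paralogs, so reads may have been split between them.

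**Figure D1:**
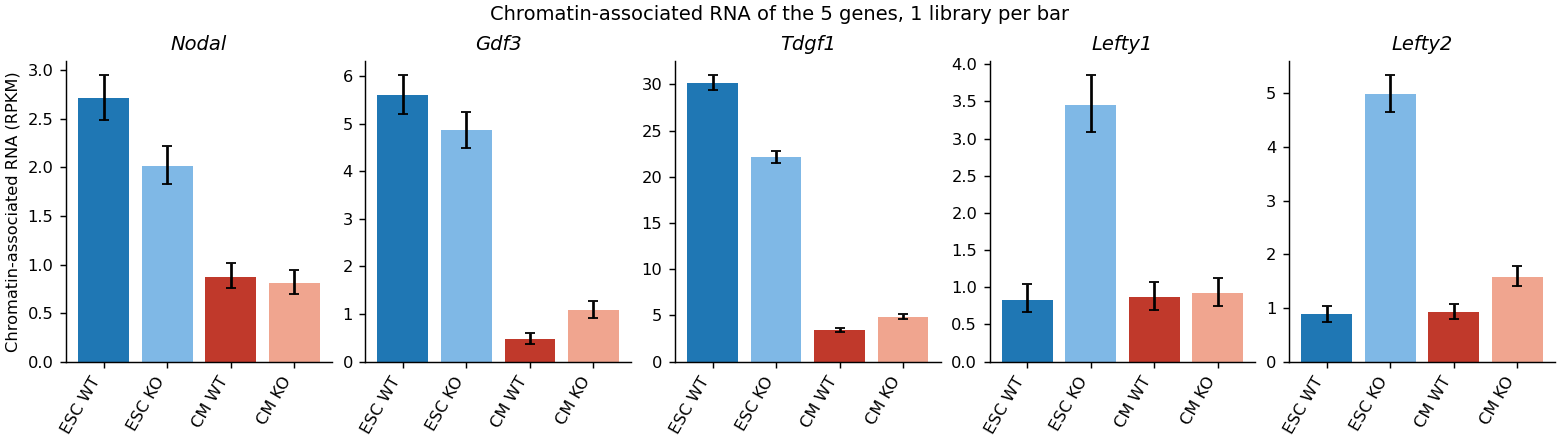
Chromatin-associated RNA in RPKM (vertical axis, its own scale for each gene) in the 4 libraries (horizontal axis), 1 bar per library, with exact 95% Poisson intervals that cover counting error only. Nodal, Gdf3 and Tdgf1 are highest in the ESC libraries, and Lefty1 and Lefty2 stand out in ESC KO alone, at 3.45 and 4.98 RPKM.

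On the scale of log2(RPKM + 1), with a filter of at least 1 RPKM in 1 of the 2 libraries compared, 3 of the 5 genes entered the comparison of CM WT with ESC WT, and Tdgf1 and Gdf3 were at least 2-fold lower. Of all 5865 genes 6.5% were that much lower and 4.6% that much higher, or 381 and 270 genes. The median of all genes was -0.25 there, and with values centred on it the split became 204 lower and 438 higher, with the same 2 of the 5 lower. Against that median the Lefty1 log2 ratio of CM WT to ESC WT moved from 0.02 to 0.27 and that of Lefty2 from 0.03 to 0.28. Nodal, at -0.98, lay just outside the 2-fold line, and with a pseudocount of 0.1 it lay past it, at -1.53.

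All 5 entered the comparison of CM KO with ESC KO. Tdgf1 (-1.98), Gdf3 (-1.49), Lefty1 (-1.21) and Lefty2 (-1.21) were at least 2-fold lower, against 3.67% of 5558 genes lower and 5% higher, and Nodal stood at -0.73. All 5 also entered the comparison of ESC KO with ESC WT, where Lefty2 (1.67) and Lefty1 (1.28) were at least 2-fold higher, against 1.49% of 5240 genes higher and 0.649% lower. There Tdgf1 was at -0.43, Nodal at -0.30 and Gdf3 at -0.17. The 5 genes were proposed from this contrast and those above, so nothing is read from the shares.

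In the comparison of CM KO with CM WT, 3 of the 5 passed the filter and none was 2-fold changed on this scale, against 2.11% of 5170 genes higher and 1.37% lower, or 109 and 71 genes. The log2 ratios were 0.50 for Gdf3, 0.42 for Lefty2, 0.41 for Tdgf1, 0.04 for Lefty1 and -0.05 for Nodal. With a pseudocount of 0.1 Gdf3 lay past the 2-fold line, at 1.04. The median of all genes was 0.13. Against it the split over all genes became 76 higher and 85 lower, and the Lefty1 value turned to -0.08. In the same comparison 3 of 4 pluripotency markers in the filter were higher in CM KO, and the part of remaining pluripotent cells in these differences was not tested.

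**Figure D2:**
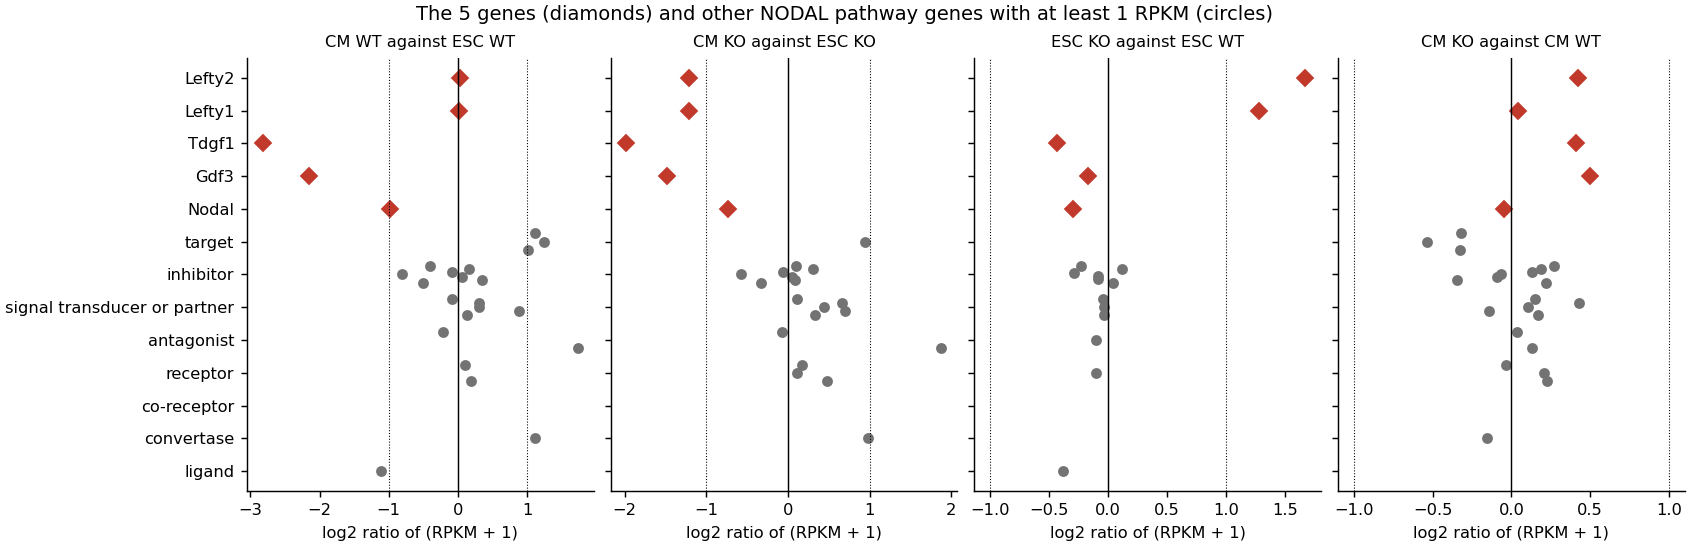
Log2 ratios of (RPKM + 1) in the 4 comparisons (horizontal axis) for the 5 genes (diamonds, all shown) and for the other NODAL pathway genes in the same filter (circles), by role (vertical axis). Dotted lines mark 2-fold. Lefty1 and Lefty2 lie past the 2-fold line in ESC KO against ESC WT, where no circle does.

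The other 38 genes of a NODAL pathway list, of which 37 had a value, did not follow the antagonists. In ESC KO against ESC WT, 12 were in the filter and none reached 2-fold, with a median log2 ratio of -0.09, the same as the -0.09 of all genes. The receptors Acvr1b, Acvr2a and Acvr2b and the transducers Smad2 and Smad4 stood between 0.748 and 2.67 RPKM in the 4 libraries. Smad3, which like Smad2 carries the signal of the activated receptors, was at 0.276 (WT) and 0.318 RPKM (KO) in ESCs and at 1.35 (WT) and 1.13 RPKM (KO) in CM. The receptor gene Acvr1c was near 0 in all 4, at 0.00226 RPKM or less. The co-receptor gene Cfc1, an EGF-CFC relative of Tdgf1, was at 0.663 (WT) and 0.715 RPKM (KO) in CM and had no row in the ESC tables. Foxh1, the DNA-binding partner of SMAD2/3, was at 0.623 (WT) and 0.705 RPKM (KO) in ESCs and at 1.00 (WT) and 1.69 RPKM (KO) in CM.

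In CM WT against ESC WT, 21 of the list were in the filter, with a median of 0.16 beside -0.25 for all genes. Of these, 5 were at least 2-fold higher. Cer1, another secreted antagonist of NODAL, was at 0.0105 RPKM in WT ESCs and had no row for KO ESCs, beside 2.36 (WT) and 2.68 RPKM (KO) in CM. Furin, a convertase that cleaves pro-NODAL, went from 0.180 to 1.57 RPKM. The targets Otx2 (0.369 to 1.96) and Fgf5 (0.0329 to 1.45) were also among them. Inhbb, which encodes an activin subunit, was the 1 gene at least 2-fold lower, at 1.34 RPKM in ESC WT and 0.0802 in CM WT.

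In CM KO against ESC KO 19 were in the filter and Cer1 alone reached 2-fold, with a median of 0.17 beside -0.04 for all genes. In CM KO against CM WT 21 were in the filter and none reached 2-fold, with a median of 0.10 beside 0.13 for all genes. Fgf5 was lower by the most there, at 0.688 against 1.45 RPKM.

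Over the 4 libraries, each gene's pattern was compared with 5280 protein-coding genes by the distance between centred log2(RPKM + 0.1) values, where 0 is an identical pattern. Lefty1 was nearer to Lefty2 (0.558) than to any gene outside the 5, among which Ulk1, an autophagy kinase gene (0.565), and Wfdc2 (0.724) were the nearest. For Lefty2 they were Grcc10 (0.842), Ulk1 (0.924) and Tfap2c (1.05). Tmem63a, 3885 bases from Lefty1, was at 0.176 (WT) and 0.316 RPKM (KO) in ESCs and at 0.270 (WT) and 0.195 RPKM (KO) in CM. This neighbour was thus highest in the ESC KO library, as the antagonists were, but CM WT (0.270) came close and no counting interval was computed for it.

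Tdgf1 lay closest to Dppa4 (0.137), a chromatin gene of pluripotent cells, then to H2-M5 (0.168) and to Tet1 (0.206), which oxidizes methylcytosine. Gdf3 lay closest to Fgf4 (0.206), a growth factor of pluripotent cells, then to Cnpy1 (0.229) and Triml2 (0.274). Nodal lay closest to Cnnm2 (0.129), B4galnt3 (0.133) and Cyb5r1 (0.137). With 4 libraries many genes share such a pattern. The neighbour of Tdgf1, Lrrc2 (5387 bases away), was at 0.695, 0.617, 0.0962 and 0.142 RPKM in the same order of libraries. The neighbour of Nodal, Eif4ebp2, was at 2.87, 2.22, 1.87 and 1.78, and that of Gdf3, Apobec1, at 0.664, 0.385, 0.581 and 0.0979.

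The m6A lists gave positions on all 5 genes, in both genotypes. Each position is the first base of a motif of 4 bases, 2 purines and then AC, counted from 0 at the start of the gene in the direction of transcription. The 5 genes held 19 of 16983 (WT) and 23 of 18076 positions (KO) in ESCs, and 11 of 25617 (WT) and 7 of 13962 (KO) in CM. Per 10000 positions this was 11.2, 12.7, 4.29 and 5.01, so the share was lower in the CM lists, as was the RNA of Nodal, Gdf3 and Tdgf1. The KO lists were thus not empty on these genes, and the lists hold no height or score that would compare the amount of m6A.

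Nodal held 6 positions on each ESC list and 5 (WT) and 4 (KO) on the CM lists. Its GGAC at 6631 and its AAAC at 316 were on all 4 lists, and its GGAC at 5308 was on 3. Of its 9 distinct positions 7 were GGAC, a motif that made up 29.0% to 33.5% of all positions on the 4 lists. Gdf3 held 6 (WT) and 7 (KO) positions in ESCs and 2 (WT) and 1 (KO) in CM, and none of its 9 distinct positions was on all 4 lists. Its AGAC at 3070 was on every list except CM KO, and its GGAC at 3277 on every list except ESC KO, where a GGAC at 3307 was listed.

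Tdgf1 held 5 (WT) and 7 (KO) positions in ESCs and 3 (WT) and 1 (KO) in CM. Its AAAC at 70 was on all 4 lists and was the 1 position left in CM KO, and its AGAC at 6146 was on the other 3. Of its 10 distinct positions 6 were AAAC and 1 was GGAC. Over all genes AAAC made up 18.4% to 21.7% of the positions on the 4 lists.

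Lefty1 held 1 position in ESC WT (GGAC at 3222), 2 in ESC KO (GGAC at 49 and AAAC at 3215) and none in CM. The late positions of the 2 ESC lists lay 7 bases apart. Lefty2 held 1 position on each list, at 4868 (WT) and 5238 (KO) in ESCs and at 4919 (WT) and 4885 (KO) in CM, and no 2 lists shared it. In ESC KO, where its RNA was 5.64 times the ESC WT level (4.72 to 6.75), the number listed was the same.

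Along the genes the positions were uneven. Of 35 distinct positions 27 lay in the last 1/3 of the gene span, 7 in the first 1/10 and 1 between them, the Gdf3 position at 3070, 65.5% along the span. In ESC WT 15 of 19 lay in the last 1/3, where 46.9% of all positions in genes of 3 to 8 kb did. In ESC KO it was 16 of 23 beside 43.2%, in CM WT 8 of 11 beside 44.8% and in CM KO 5 of 7 beside 38.5%. The span counts introns, and exons are not told apart here.

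ESC KO and ESC WT shared 12 positions of these genes, 63.2% of the WT list and 52.2% of the KO list, beside 53.9% and 50.7% over all genes. When positions within 100 bases were taken as one, the shares were 94.7% and 78.3%, beside 71.6% and 66.9%. CM WT and ESC WT shared 7, 36.8% of the ESC and 63.6% of the CM list, beside 53.0% and 35.1%. Of the 35 positions 3 were on all 4 lists, or 8.57%, beside 10.1% of 42515 positions over all genes. Of the other pathway genes, 16 (WT) and 15 (KO) of 38 had a position in ESCs and 26 (WT) and 23 (KO) in CM. Over all genes, the lists named 5367 (WT) and 5342 (KO) genes in ESCs and 7572 (WT) and 4962 (KO) in CM. Of genes with at least 1 RPKM, 65.3% (WT) and 67.9% (KO) had a position in ESCs and 75.8% (WT) and 58.6% (KO) in CM. The 38 pathway genes were not filtered by RNA level.

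**Figure D3:**
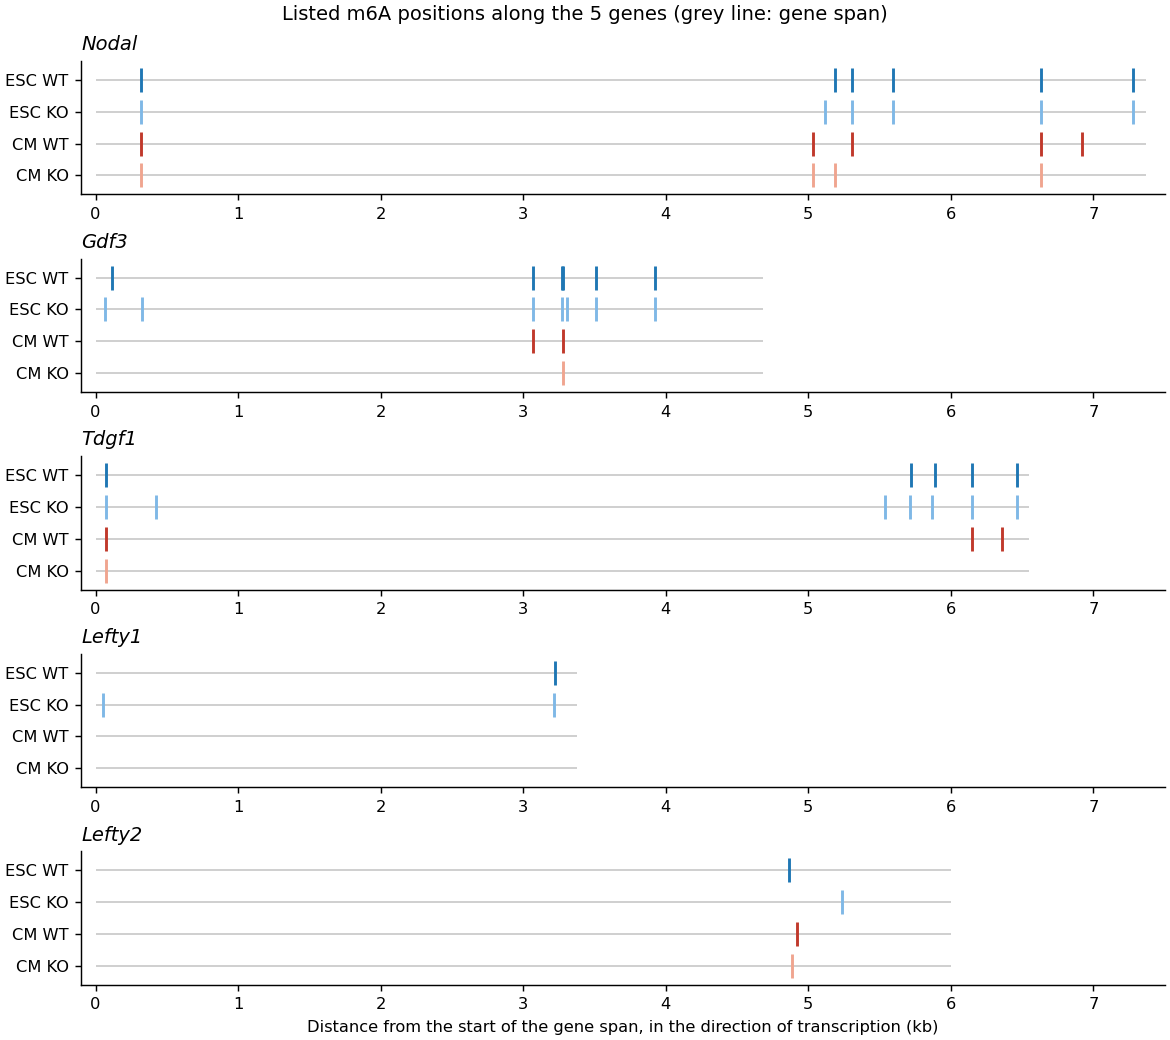
Listed m6A positions (ticks) along each gene in kb from its start (horizontal axis) on the 4 lists (rows), with the gene span as a grey line. Most ticks lie toward the end of the genes, and the early ticks of Nodal (316 bases) and Tdgf1 (70 bases) recur on all 4 lists.

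ATAC-seq was the replicated measure, in other libraries than the RNA. The deposited intervals were summed as called bases within each gene plus 2 kb on both sides. The lists differed in size, with 112503 ± 6215 (WT) and 114635 ± 2404 (KO) intervals in ESCs and 88791 ± 5064 (WT) and 73177 ± 3128 (KO) in CM (SD, n = 3). 1 CM KO library, replicate 3, carries a molecule label of RNA, and its 73017 intervals lay between those of the other 2. A smaller list lowers called bases at most genes, so the members are set beside all genes.

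All 5 genes had fewer called bases in CM than in ESC libraries (two-sided exact permutation of cell type within genotype, Benjamini-Hochberg over 33097 genes). So did 50.4% of all genes, while 1.89% had more, so the direction of the 5 was that of most called genes. The difference tested is the mean of the differences in WT and in KO, so the CM KO libraries count in it as much as CM WT. No p-value here is for CM WT against ESC WT alone. For Nodal the ESC WT libraries held 2373, 2270 and 2306 bp and the ESC KO libraries 2116, 1989 and 2191 bp. The CM WT libraries held 1622, 1932 and 1959 bp and the CM KO libraries 1885, 1832 and 1804 bp, all below every ESC library. The difference was -368.5 bp (adjusted p = 0.0136 by this permutation test). The direction of Nodal turned to 122 bp more in CM in the gene body alone (adjusted p = 0.105, permutation) and to 0.333 more by the number of intervals (adjusted p = 1, permutation). CM WT kept 79.3% of the ESC WT mean at Nodal and CM KO kept 87.7% of the ESC KO mean.

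For Gdf3 the libraries held 1835, 2018 and 1835 bp in ESC WT and 1783, 1672 and 1900 bp in ESC KO. They held 708, 1068 and 1151 bp in CM WT and 1252, 1156 and 920 bp in CM KO, again without overlap between the cell types. The difference was -798 bp (adjusted p = 0.0136, permutation). CM WT kept 51.5% of the ESC WT mean at this ligand gene, and CM KO kept 62.1% of the ESC KO mean. The median gene called in all 12 libraries kept 81.4% in WT and 73.1% in KO.

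For Tdgf1 the libraries held 2951, 3014 and 3008 bp in ESC WT and 2918, 2884 and 2728 bp in ESC KO. They held 1939, 2042 and 2206 bp in CM WT and 1900, 2202 and 1986 bp in CM KO. The CM values lay together and below all 6 ESC values. The difference was -871 bp (adjusted p = 0.0136, permutation), and 69.0% of the ESC mean remained in CM in WT and 71.4% in KO.

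For Lefty1 the libraries held 1458, 1448 and 1472 bp in ESC WT and 1632, 1525 and 1397 bp in ESC KO. They held 921, 1267 and 1075 bp in CM WT and 1157, 1017 and 1040 bp in CM KO. No CM value reached an ESC value, and the difference was -409 bp (adjusted p = 0.0136, permutation). In WT 74.5% of the ESC mean remained in CM, and in KO 70.6%. The ESC WT and ESC KO values overlapped. The ESC RNA intervals of this gene did not, but they cover counting error only. They hold no spread between libraries, so the overlap in called bases cannot be compared with them.

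For Lefty2, which had the fewest called bases of the 5, the libraries held 485, 518 and 588 bp in ESC WT and 581, 505 and 401 bp in ESC KO. They held 276, 280 and 314 bp in CM WT and 284, 168 and 554 bp in CM KO. CM KO replicate 3, at 554 bp, lay within the ESC values, and 54.7% of the ESC mean remained in CM in WT and 67.7% in KO. The difference was -200.3 bp (adjusted p = 0.0321, permutation), and it did not hold when only summits at a −log10 q of at least 5 were used (adjusted p = 0.0807, permutation). With the same number of intervals taken from every library, Lefty1 (adjusted p = 0.0563, permutation), Nodal (0.128) and Lefty2 (0.152) no longer passed, and Tdgf1 and Gdf3 did. By the number of intervals none of the 5 passed, and Gdf3 turned to 0.5 intervals more in CM. Over all settings tried, the adjusted permutation p ran from 0.0111 to 0.251 for Lefty1, to 0.418 for Gdf3, to 0.582 for Tdgf1, to 0.691 for Lefty2 and to 1 for Nodal.

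**Figure D4:**
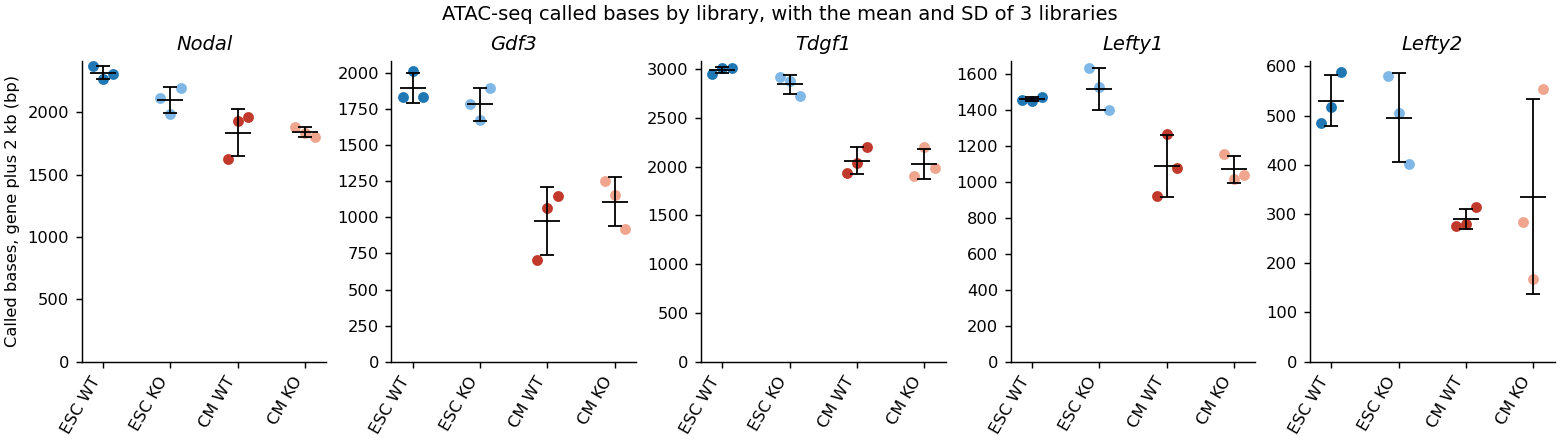
Called bases in bp (vertical axis) in each gene plus 2 kb, 1 point per ATAC-seq library, with the mean and SD of the 3 libraries of a group in black. The CM points lie below the ESC points for 4 genes, and for Lefty2 1 CM KO library at 554 bp reaches into the ESC range.

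Neither the KO effect nor its difference between cell types passed for any of the 5, or for any gene. The smallest p of this permutation test is 0.005, so after adjustment over 33097 genes a call needs many genes at that p together. An effect of the knockout confined to a few genes could thus not have been called. For KO against WT the differences were -108 bp for Nodal (p = 0.175, exact permutation), 11.3 bp for Gdf3 (p = 0.895, exact permutation), -90.3 bp for Tdgf1 (p = 0.19, exact permutation), 21.2 bp for Lefty1 (p = 0.735, exact permutation) and 5.33 bp for Lefty2 (p = 0.955, exact permutation). The adjusted permutation p-values ran from 0.490 to 1. Over all genes 0% were called in either direction after adjustment, and 13.5% were lower and 2.78% higher at an unadjusted p of at most 0.05. For the KO effect in CM minus that in ESC, the unadjusted permutation p-values ran from 0.155 for Nodal to 0.61 for Lefty2, and 0% of genes were called, with 10.8% lower and 2.36% higher at an unadjusted p of at most 0.05.

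Single pairs of groups, 3 libraries against 3, cannot go below p = 0.1 in an exact test and were read for overlap. In ESC KO, Tdgf1 (2843 ± 101 bp) and Nodal (2099 ± 102 bp) lay below every ESC WT library (2991 ± 34.8 and 2316 ± 52.3 bp, SD, n = 3), and the other 3 genes overlapped. Groups did not overlap in this direction for 10.9% of 31523 genes, and in the other for 9.26%. In CM KO against CM WT all 5 overlapped, where 26.5% of 30329 genes were lower without overlap and 3.48% higher. In WT all 5 were lower in CM without overlap, as were 45.8% of genes, with 7.81% higher. In KO all but Lefty2 were lower, as were 60.7% of genes, with 1.3% higher.

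Merged over the 12 libraries, 18 regions touched the 5 genes with 2 kb added, and 11 of them were called in every library. The share of all 193422 regions called in every library is not reported here, so nothing is read from this count. A region across the Tdgf1 start, from -141 to 109 bases relative to it, was called in 6 of 6 ESC and 0 of 6 CM libraries. That pattern held for 4.3% of 193422 regions, and 15% of genes had such a region in this window. Its deposited summit fold enrichment was low where called, between 2.52 and 2.89 in the 6 ESC libraries, while the next region upstream, from -2187 to -302 bases, was called in all 12. Absence of a call is not a measured 0, and the level under it is not used here.

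Nodal had the 1 region gained in CM, from 1233 to 1496 bases after its start, called in 0 of 6 ESC and 6 of 6 CM libraries. Only 0.728% of regions showed this, and 2.78% of genes had one in their window. Its fold enrichment ran from 2.20 to 2.98. The region across the Nodal start, from -225 to 732 bases, was called in all 12 libraries with fold enrichments of 2.92 to 3.57. The strongest region in the gene, from 5195 to 5742 bases after the start, was also called in all 12. It spans the m6A positions 5308 and 5596 if the lists count from the same annotated start, which was not checked for Nodal.

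At Lefty1 a region 2901 to 3157 bases from the lower-coordinate end was called in all 3 ESC WT, 2 of 3 ESC KO and 0 of 6 CM libraries. The other 3 regions at Lefty1, and the 1 region at Lefty2 in this window, were called in all 12. At Gdf3 the region from 4052 to 4726 bases from the lower-coordinate end, which covers its upper end at 4685 bases, was called in all 12.

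Within 10 kb the genes had 38 regions, 19 of them in all 12 libraries, again without the share over all regions beside it. Besides the Tdgf1 start, 3 were called in 6 of 6 ESC and 0 of 6 CM libraries. At Nodal it lay from -8318 to -8027 bases relative to the start, and its neighbour from -7671 to -7445 bases was called in 5 of 6 ESC and 0 of 6 CM libraries. At Gdf3 it lay 11994 to 12458 bases from the lower-coordinate end, with fold enrichments of 5.38 to 7.35 in the ESC libraries. At Lefty2 it lay 13417 to 13710 bases from the lower-coordinate end. 1 region split the genotypes, from -8836 to -8509 bases relative to the lower-coordinate end of Gdf3 and within the span of Apobec1. It was called in 3 of 3 CM WT and 0 of 3 CM KO libraries and in no ESC library, a CM pattern shown by 3.74% of regions.

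**Figure D5:**
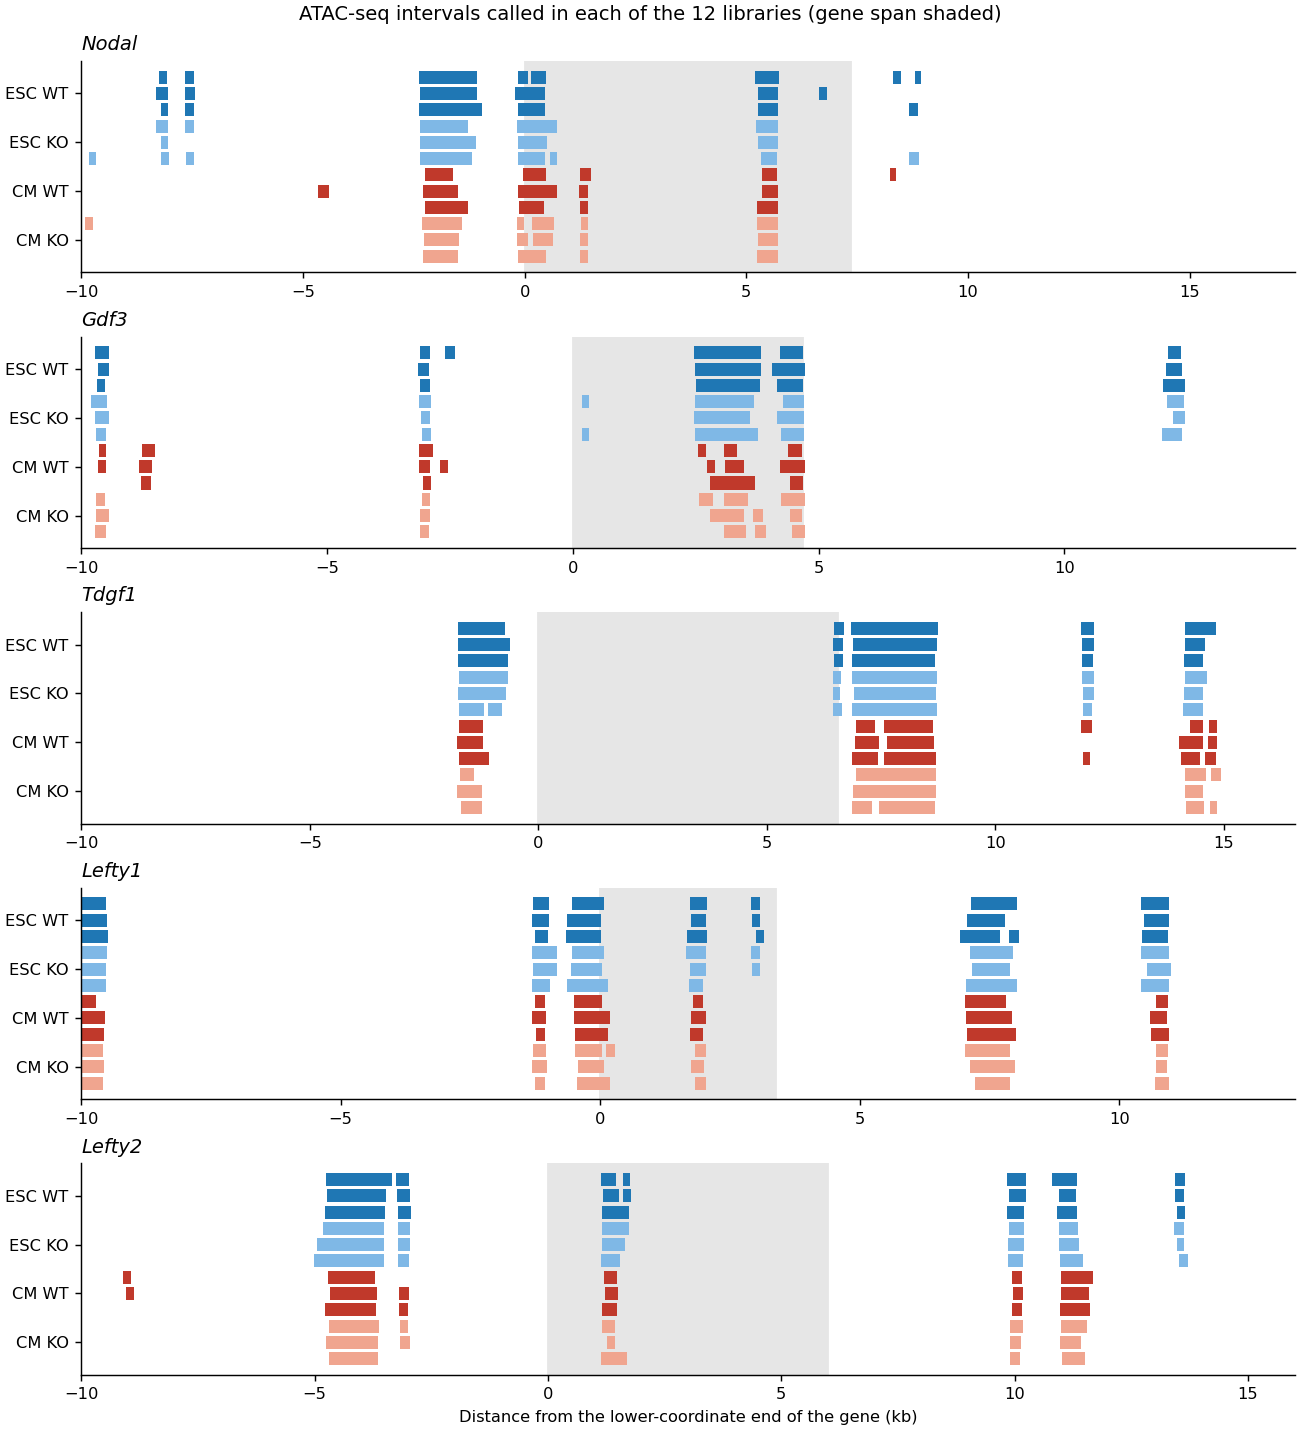
ATAC-seq intervals (bars) in each of the 12 libraries (rows, 3 per group) against the distance in kb from the lower-coordinate end of each gene (horizontal axis), with the gene span shaded. Tdgf1 runs from right to left, and the small interval at its start, near 6.5 kb, is present in the 6 ESC rows and absent in the 6 CM rows.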

How the data were processed

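Tools named without role or version in the submitters' processing notes are MACS2, HISAT2, Bowtie, Picard and cutadapt, with the build mm10. No label says whether ATAC-seq reads were shifted for the transposase. The deposited ATAC-seq lists, 1 per library, hold intervals with a score, a fold ratio and −log10 p and q of the summit, as the authors' peak caller gave them. The deposited ChrRNA-seq values are RPKM per Ensembl gene, per the file names given by the authors. A gene with no row in a library was taken as 0. The deposited m6A lists hold a gene, a position (unit other) and a motif. Repeated lines were counted once.

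Symbols came from a table of gene names, which matched 99.5% to 99.6% of identifiers. Gene spans came from RefSeq on GRCm38.p6. The position convention was checked against RefSeq promoter sequence: motifs matched for 39.8% to 44.9% of positions near the start, and for at most 3.15% when shifted. No position of the 5 genes lay near enough to the start to be in this check. Their places along the span thus assume that the lists used the same start. Promoters were matched for 2 of the 5 genes, Tdgf1 and Nodal.

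RPKM values are not counts, and the number of reads was estimated from the steps between low values. Between 55.0% and 57.1% of genes with 0.5 to 10 reads came within 0.05 of a whole read, so read numbers are approximate and intervals cover counting error only. With 1 library per group no test was made. Log2 ratios used a pseudocount of 1, which understates changes of low genes. ATAC-seq tests were exact permutations (400 arrangements, smallest p 0.005), checked on simulated data. An adjusted p of at most 0.05 was called. Scripts used Python 3, numpy, pandas and scipy.

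The genes, lists and tests were chosen with earlier results of these data known. Named besides the 5 genes are pathway genes at least 2-fold changed, the 3 nearest patterns per gene, neighbours within 10 kb and Mettl3. Foxh1, Cfc1, the receptors, the SMAD transducers, the cardiac markers named and Tdgf1-ps1 were added after their values were seen. A pathway gene and a neighbouring gene that meet this rule are not reported here.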

Additional observations from a re-analysis of the deposited data

Results flagged for a closer look

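The knockout ratio of 2 of the genes had opposite directions in the 2 cell types, each with a counting interval that left out 1 before centring. For Tdgf1, the log2 ratio of KO to WT on the (RPKM + 1) scale was 0.84 higher in CM than in ESC (0.41 in CM, -0.43 in ESC). For Gdf3 it was 0.67 higher (0.50 in CM, -0.17 in ESC). The median of all genes also differed in direction, at 0.13 in CM and -0.09 in ESC. Centred on it, Tdgf1 was at 0.29 in CM and -0.34 in ESC, and Gdf3 was at 0.37 in CM and -0.08 in ESC. There was 1 library per group, and the difference between cell types was not tested. The summed pluripotency markers also differed between CM KO (9.35 RPKM) and CM WT (4.81 RPKM), and their part in the pattern was not tested.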

How the results depend on the processing

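In CM against ESC, all 5 differences in called bases kept their direction and their call with 10 kb on each side. Under the other settings, 1 or more changed, and the cause was not tested. With only summits at a −log10 q of at least 5, Lefty2 (-200.5 bp, adjusted permutation p = 0.0807) was no longer called. With the same 70127 intervals from every library, Lefty1 (-228 bp), Lefty2 (-148 bp) and Nodal (-205 bp) were not called, and the genes called lower fell to 8716 of 30673. In the gene body alone, Nodal turned to 122 bp. The other 4 stayed called there, but Tdgf1 was at -95.2 bp and Lefty1 at -159 bp, smaller than with 2 kb added. Lefty2 was at -200.3 bp and Gdf3 at -799 bp. By the number of intervals, Lefty1 (-0.667), Lefty2 (-0.333) and Tdgf1 (-0.5) were not called and Nodal (0.333) and Gdf3 (0.5) turned, while 3817 genes were called lower.

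Same-numbered libraries did not deviate together (r from -0.044 to 0.018 over 18 pairs), so no pairing by number was seen in called bases. Whether same-numbered libraries shared a culture or a batch cannot be told from this. With the replicate block, a sign-flip test of 64 arrangements whose smallest p is 0.03125, 0 genes were called, with 14347 lower and 416 higher at an unadjusted p of at most 0.05. The differences were then -409 bp for Lefty1, -200.3 bp for Lefty2, -871 bp for Tdgf1, -368.5 bp for Nodal and -798 bp for Gdf3. The 4 smallest adjusted permutation p-values were 0.0701 and that of Lefty2 was 0.113. Lefty1, Tdgf1, Nodal and Gdf3 stood at the smallest p of this sign-flip test, so a larger difference at them could not have been called either. After adjustment over all genes, a call at that p needs a large share of genes to reach it together.

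Without 1 replicate number in all groups, the smallest p is 0.0556, so no call can be made. The CM minus ESC differences then ran from -441.5 to -360.75 bp for Lefty1, from -270.25 to -156.75 bp for Lefty2, from -921 to -799.5 bp for Tdgf1, from -429 to -307.25 bp for Nodal and from -830.5 to -781 bp for Gdf3.

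The KO against WT differences, none of them called, changed sign easily. Without 1 replicate number they ran from -70.75 to 75 bp for Lefty1, from -18 to 39.25 bp for Lefty2 and from -106 to 81.5 bp for Gdf3. With equal intervals Nodal turned to 43 bp. In the gene body Lefty1 was at -22.8 bp, Tdgf1 at 8.5 bp and Nodal at 28.3 bp. With 10 kb Lefty1 was at -37.2 bp, Lefty2 at -94.2 bp and Gdf3 at -121 bp. By the number of intervals Lefty1 was at 0 and Lefty2 at -0.333.

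The KO effect in CM minus that in ESC turned likewise, with no call. Without 1 replicate number it ran from -143.5 to 51 bp for Lefty1 and from -93.5 to 169.5 bp for Lefty2. Lefty2 was at -24.3 bp with equal intervals and at -135 bp with 10 kb. In the gene body Lefty1 was at 32.3 bp, Tdgf1 at -17 bp and Nodal at -43.3 bp. By the number of intervals Lefty1 was at 0.667, Tdgf1 at -1 and Gdf3 at -0.333.

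In chromatin RNA, the counts of the 5 genes past 2-fold were the same with centring. On the log2(RPKM + 1) scale a gene under 1 RPKM in both libraries cannot reach 2-fold, so dropping the filter or lowering it to 0.5 RPKM tests nothing about these counts. Centring moved the counts over all genes in CM WT against ESC WT to 438 higher and 204 lower, and turned the Lefty1 log2 ratio of CM KO to CM WT to -0.084. A pseudocount of 0.1 moved 12 of the 20 log2 ratios of the 5 genes beyond their counting error and turned none. It took 2 past 2-fold, Nodal in CM KO against ESC KO (-1.21) and Gdf3 in CM KO against CM WT (1.04), besides Nodal in CM WT. Among the m6A positions, a match within 100 bases, added after the data were seen, raised those shared by CM KO and ESC KO from 3 to 6. The planned m6A alternatives, 2 kb added to the gene and a filter on scores, were not run because the lists give positions within genes and no score.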
